A study of Sus scrofa with 14 samples.

Results

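The circular RNA (circRNA) junctions described here are the long ones, those whose joined ends lie 40 kb or more apart in the genome. In the table of forebrain and cortex, 668 of 5585 lines (12%) met the rule of a genomic length of at least 40000 bp, and in the table of 5 brain regions 456 of 3967 lines (11.5%) met it. Lines whose library reads did not add up to the total stated for the line were set aside, which left 606 long lines and 4391 shorter lines of the cortex table, and 436 long lines and 3340 shorter lines of the regions table. This removed 62 of the 668 long cortex lines (9.28%) and 526 of the 4917 shorter ones (10.7%). The longest line spanned 99744 bp.

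Backsplicing joins a splice donor to an acceptor that lies upstream in the same transcript, and the product is a closed RNA loop without free ends. The genomic length of a junction includes the introns between its ends, most of which are spliced out, so it measures how far apart the joined sites are and not the size of the loop. Genes with long introns are common among those that build synapses and guide axons, and many circRNAs are abundant in brain.

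Embryonic pig brain RNA longer than 200 nt was sequenced after removal of ribosomal RNA, with 1 library for each of 14 combinations of region and embryonic day (E). The groups were forebrain at E23 and cortex at 5 later days (E42, E60, E80, E100 and E115), and also hippocampus, basal ganglia, brain stem and cerebellum at E115 and at E60. No group has a replicate and nothing in the labels ties a library to an animal, so the intervals given below cover counting error only. E23 was taken as forebrain and every later stage as cortex, and there the day cannot be told apart from the tissue. Libraries held 9.67 to 58.8 M reads and 518 to 17336 circRNA reads, and levels are given as circRNA reads per M library reads (RPM).

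Long lines carried more reads each than shorter ones. The 606 long lines of the cortex table held 18811 reads, a mean of 31 and a median of 6 per line, and the 4391 shorter lines held 65279 reads, a mean of 14.9 and a median of 5. At least 50 reads were reached by 74 long lines (12.2%) and by 237 shorter lines (5.40%). The reads of long lines were concentrated: the 10 with most reads held 34.7% of all long reads, while the 10 shorter lines with most reads held 9.93% of the shorter reads. The median genomic length was 57856 bp for long lines and 7778 bp for shorter ones.

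Other features of the lines also differed. A line was counted as having a shared end when at least 1 of its ends was also an end of another line on the same strand of the same table. Of the long lines 369 (60.9%) had such an end, and of the shorter lines 2148 (48.9%). More than 1 host gene name stood in 12.2% of long lines and in 6.04% of shorter lines, while 3.8% of long lines and 3.73% of shorter lines had no host name. Distinct junction reads numbered 69.3 per 100 reads in long lines and 78.5 per 100 reads in shorter lines. Chromosome 1 held 15.8% of long lines and 12.2% of shorter lines.

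The lines on either side of the length limit were thin in reads except for 1. The shortest long line, of 40022 bp, lay in PPA2, which encodes a mitochondrial inorganic pyrophosphatase (chromosome 8, 124913148 to 124953169). It had 79 reads at E23, 21 at E42 and 21 at E60, and 15 at E80, 21 at E100 and 24 at E115. Next came a line of 40047 bp in MPP2, with 28 reads in all. Just below the limit stood a line of 39996 bp in ENSSSCG00000028406 with 4 reads and a line of 39875 bp in C1orf173 with 2 reads.

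Long junctions took a growing part of the circRNA reads of the cortex after E60. They held 20.9% of the reads in the E23 forebrain (95% exact interval 20.3% to 21.6%), 17.5% at E42, 12.6% at E60 (12.1% to 13.1%), 26.1% at E80, 30.7% at E100 and 34.3% at E115 (interval 33.5% to 35.2%). The share was lowest at E60 and highest at E115, and intervals of adjacent stages did not overlap. The share at E115 was 2.73 times that at E60 (interval 2.61 to 2.86). Between E80 and E42, which were sequenced to 26.6 and 26.7 M reads, the ratio was 1.49 (1.42 to 1.57).

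The level of long junctions moved far less than that of shorter ones. It was 59.4 RPM at E23, 112 at E42 and 102 at E60, followed by 79.3 at E80, 82.9 at E100 and 74.1 at E115. Shorter junctions had 225 RPM at E23, 530 at E42 and 708 at E60, then 225 at E80, 188 at E100 and 142 at E115. Both were highest at E42 or E60 and lower from E80 on. Long junctions at E115 kept 0.729 of their E60 level (exact interval 0.692 to 0.769), against 0.20 for shorter junctions (0.195 to 0.206). In bulk tissue, fewer cells of a type and less RNA per cell cannot be told apart, and this holds for every level given here.

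Over the 6 libraries the share did not have a relation with day that passed the threshold of 0.05. The rank correlation (Spearman's rho) was 0.77 (two-sided exact permutation p = 0.103, adjusted p = 0.206 in a family of 8) while the linear correlation (Pearson's r) was 0.78 (exact permutation p = 0.0778, adjusted p = 0.206). Without E23 rho was 0.90 (exact permutation p = 0.0833), and with both end stages left out (E23 and E115) r was 0.85 (exact permutation p = 0.167). For the level of long junctions rho was -0.09 over the 6 libraries (exact permutation p = 0.919). Over the 5 cortex libraries, without E23, it was -0.90 (exact permutation p = 0.0833), as for shorter junctions. There r for the long level was -0.93 (exact permutation p = 0.025, not adjusted).

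**Figure D1:**
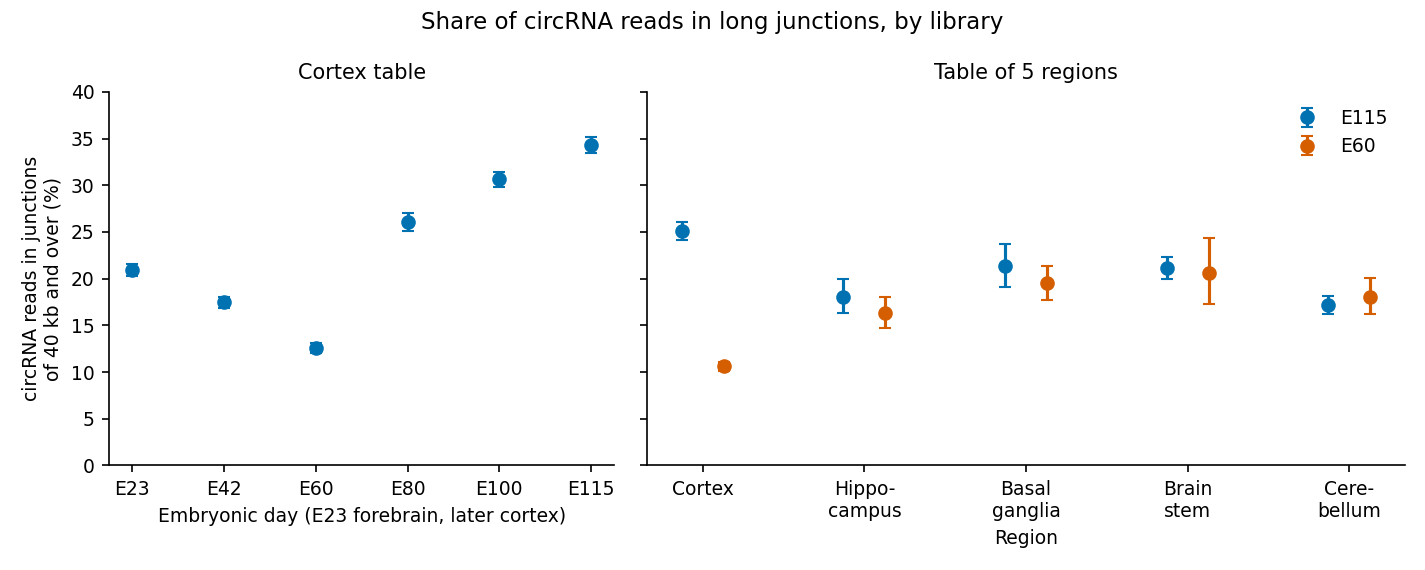
Share of circRNA reads in junctions of 40 kb and over (percent, vertical axis) by embryonic day in the cortex table (left) and by region at E115 and E60 in the regions table (right), with 1 library per point and bars for the 95% exact interval of counting error. The cortex share is lowest at E60 (12.6%) and highest at E115 (34.3%), and in the regions table the E115 and E60 points lie apart in cortex and overlap within their intervals in the other 4 regions.

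The shift was also seen in counts of lines and in a measure that does not use the 40 kb limit. Of the 20 lines with most reads in each library, 9 were long at E23, 6 at E42 and 4 at E60, and 10 at E80, 11 at E100 and 11 at E115. Weighted by reads, the median genomic length was 12603 bp at E23, 10900 at E42 and 8263 at E60, followed by 16028 at E80, 19382 at E100 and 23878 at E115. Among lines detected with at least 2 reads, long ones made up 11.7% at E23, 12% at E42 and 10.2% at E60, then 15.7% at E80, 17.2% at E100 and 18.6% at E115. Without the 10 long lines with most reads, the share at E115 was 23.7% and that at E60 8.34%, a ratio of 2.84.

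The ratio of the E115 level to the E60 level rose with genomic length through every class. It was 0.111 for junctions under 1 kb (exact interval 0.102 to 0.121), 0.155 from 1 to 5 kb, 0.182 from 5 to 10 kb and 0.219 from 10 to 20 kb. From 20 to 40 kb it was 0.360 (0.340 to 0.381). Within the long lines it was 0.529 from 40 to 60 kb (0.485 to 0.576) and 0.878 at 60 kb and over (0.821 to 0.939). No interval of a class overlapped that of the next.

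**Figure D2:**
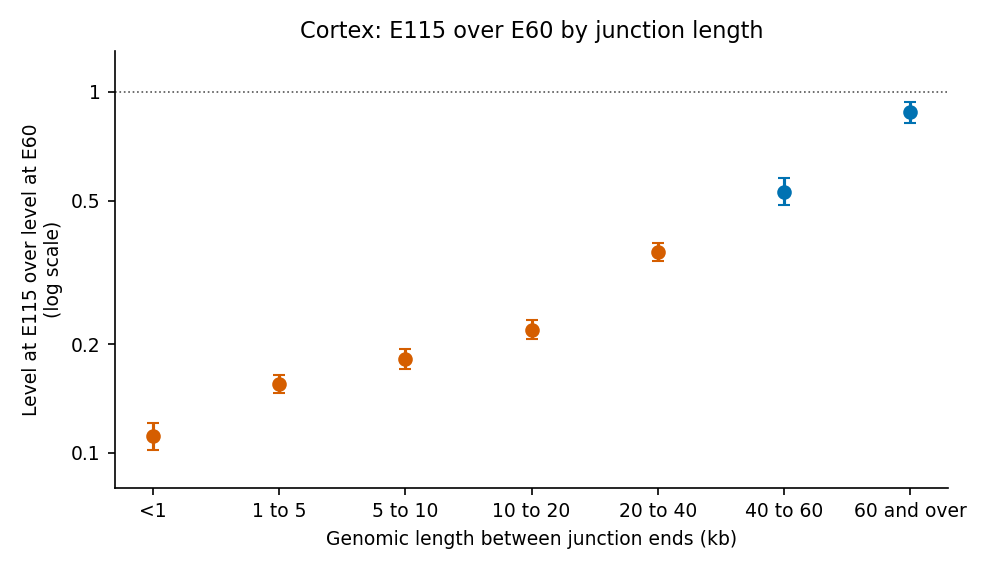
Level at E115 over level at E60 in cortex (vertical axis, log scale) for 7 classes of genomic length between junction ends (horizontal axis, kb), with orange points for classes under 40 kb, blue points for long classes and bars for the exact 95% interval of counting error. The ratio is 0.111 under 1 kb and 0.878 at 60 kb and over, and the dotted line marks equal levels.

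Long lines with and without a shared end differed across the stages. The 237 long lines without a shared end held 9804 reads and had 33.6 RPM at E23, 50.2 at E42 and 36.1 at E60, and 43.6 at E80, 44.6 at E100 and 44.2 at E115. Those with a shared end, 369 lines, held 9007 reads and had 25.8 RPM at E23, 62.1 at E42 and 65.5 at E60, followed by 35.7 at E80, 38.4 at E100 and 29.9 at E115. Lines with a shared end, like shorter lines, had their highest levels at E42 and E60. Lines without one were highest at E42, and their E60 level was below those of E80, E100 and E115. At E115 the level was 1.22 times that at E60 for lines without a shared end (exact interval 1.13 to 1.33) and 0.457 times for lines with one (0.425 to 0.491). In shorter lines the split made little difference to the summed level, with 0.210 without a shared end (0.201 to 0.220) and 0.194 with one (0.187 to 0.201). Counted line by line, shorter lines also differed by the split, as given below.

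The split was made after these values had been seen in part, and it moved with other features of the lines. Long lines without a shared end had 63.1 distinct junction reads per 100 reads, and those with one had 76.0. No host name stood in 8.86% of the lines without a shared end and in 0.542% of those with one, and an Ensembl identifier in place of a symbol stood in 34.6% and 22% of them. The part these features have in the difference was not tested. Both groups had nearly the same median length, 58689 bp without and 57248 bp with a shared end.

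**Figure D3:**
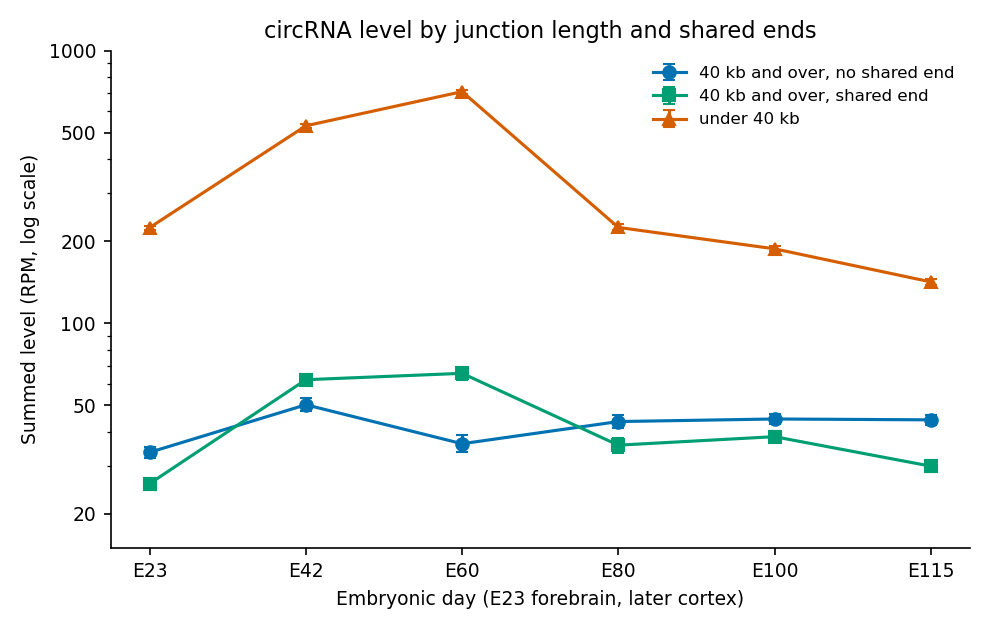
Summed circRNA level (RPM, log scale, vertical axis) by embryonic day for long junctions without a shared end (circles), long junctions with a shared end (squares) and junctions under 40 kb (triangles), 1 library per point with exact Poisson bars. Long junctions without a shared end stay between 33.6 and 50.2 RPM, while the other sets are highest at E60.

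The stage of the highest level was spread widely among the 74 long lines with at least 50 reads. It was E23 for 12 lines, E42 for 24, E60 for 10, E80 for 7, E100 for 14 and E115 for 7. Of the 237 shorter lines, it was E23 for 14, E42 for 74, E60 for 132, E80 for 6, E100 for 4 and E115 for 7. E42 and E60 together thus held 45.9% of the long lines and 86.9% of the shorter lines, and E80, E100 and E115 together held 37.8% and 7.17%. The value for long lines depended on the read limit. It was 54.7% with at least 20 reads (81 of 148) and 36.8% with at least 100 (14 of 38). Reads were summed over libraries, which favours lines high in the deeper ones (58.8 M at E23, 48.5 M at E100 and 54.0 M at E115). The E42 and E60 libraries held 26.7 and 21.4 M. Line by line, 34 of 74 long lines (45.9%) had more RPM at E115 than at E60, against 27 of 237 shorter lines (11.4%). Among long lines this was so for 24 of 35 without a shared end and for 10 of 39 with one. Each line was also counted as a share of the circRNA reads of its library in place of RPM. Of 74 long lines, 28 were then highest at E115, 17 at E23, 5 at E42 and 0 at E60. Of 237 shorter lines, 31 were highest at E115, 48 at E23, 42 at E42 and 72 at E60.

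The long line with most reads was a junction in ENSSSCG00000020975, a gene with no symbol in the tables used here (chromosome 13, 210806110 to 210875564, plus strand, 69.5 kb). It had 114 reads at E23, 176 at E42 and 112 at E60, then 207 at E80, 437 at E100 and 449 at E115, which is 7.95% of all long reads. Its level was 1.94 RPM at E23, 6.59 at E42 and 5.23 at E60, and 7.77 at E80, 9.01 at E100 and 8.32 at E115. E23 was the lowest stage, and the level at E115 was 1.59 times that at E60 (exact interval 1.29 to 1.97). The regions table lists this junction with 286 reads (5.30 RPM) at E115 and 246 (11.5 RPM) at E60 in the same cortex libraries, and there its reads do not add up. The direction between these days thus differs between the 2 tables, and only the cortex table is used. Without this line the ratio of the long share, E115 over E60, was 2.64, and that of the long level was 0.683.

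RIMS2, which encodes a scaffold protein of the presynaptic active zone, had the next line (chromosome 4, 35844936 to 35911000, minus strand, 66.1 kb). It had 23 reads at E23, 139 at E42 and 215 at E60, followed by 83 at E80, 206 at E100 and 160 at E115. These were 0.391 RPM at E23, 5.21 at E42 and 10.04 at E60, then 3.12 at E80, 4.25 at E100 and 2.96 at E115. At E60 the level stood above all others, and the E115 level was 0.295 times the E60 level (0.239 to 0.364).

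A line of TLK1, which encodes Tousled-like kinase 1, a nuclear kinase of chromatin assembly, shared the E60 maximum (chromosome 15, 86622619 to 86671532, minus strand, 48.9 kb). It had 2.23 RPM at E23, 3.52 at E42 and 7.47 at E60, and 2.63 at E80, 2.64 at E100 and 1.56 at E115. Its ratio of E115 to E60 was 0.208 (0.158 to 0.273). RIMS2 and TLK1 are 2 of only 5 lines with a shared end among the 15 with most reads.

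Several lines without symbol or shared end had E115 levels above those at E60. ENSSSCG00000026340 (chromosome 6, 73334893 to 73430424, 95.5 kb) had 2.65 RPM at E23, 2.51 at E42 and 1.96 at E60, followed by 2.59 at E80, 3.65 at E100 and 3.76 at E115. ENSSSCG00000028803 (chromosome 16, 4004000 to 4095662, 91.7 kb) had 0.969, 2.66, 1.40, 2.37, 2.04 and 2.80 RPM at the same 6 stages. In both, E60 was low, and the ratio of E115 to E60 was 1.92 (1.37 to 2.74) and 2.0 (1.34 to 3.06). ENSSSCG00000021381 (chromosome 11, 11662613 to 11750175, 87.6 kb) was nearly unread at E23, with 12 reads, and had 3.56 RPM at E42 and 1.87 at E60, then 3.0 at E80, 2.76 at E100 and 3.08 at E115. ENSSSCG00000025844 (chromosome 17, 14861638 to 14933362, 71.7 kb), which has a shared end, had 0.646 RPM at E23, 1.27 at E42 and 1.21 at E60, and 3.61 at E80, 2.68 at E100 and 2.43 at E115. Its level was thus higher in each of the last 3 libraries than in each of the first 3.

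Other abundant lines were highest early. A line of BTF3L4 (chromosome 6, 147753296 to 147835689, 82.4 kb) had 2.45 RPM at E23, 5.09 at E42 and 3.22 at E60, followed by 2.37 at E80, 2.08 at E100 and 2.04 at E115. A line outside any named host (chromosome 2, 92063632 to 92155200, 91.6 kb) had 0.969 RPM at E23, 3.75 at E42 and 3.18 at E60, then 1.69 at E80, 0.907 at E100 and 1.20 at E115. Both were highest at E42. ZCCHC11, which encodes a terminal uridylyltransferase that acts on microRNA precursors, had a line of 41.7 kb (chromosome 6, 147425793 to 147467514) with 1.95 RPM at E23, 2.25 at E42 and 0.981 at E60, and 0.939 at E80, 0.474 at E100 and 0.445 at E115. PAIP1, whose protein binds the poly(A)-binding protein and promotes translation, had a line of 59.9 kb (chromosome 16, 29621190 to 29681127) with 1.95 RPM at E23, 1.57 at E42 and 0.654 at E60, followed by 1.05 at E80, 0.969 at E100 and 1.02 at E115. Its E115 level was 1.56 times that at E60, with an interval of 0.855 to 3.03 that includes 1.

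RELN encodes reelin, a secreted protein that guides the layering of migrating neurons in cortex and cerebellum. Its line (chromosome 9, 114262312 to 114333183, minus strand, 70.9 kb) had 36 reads at E23, 74 at E42 and 21 at E60, then 38 at E80, 64 at E100 and 68 at E115. Its level was 0.612 RPM at E23, 2.77 at E42 and 0.981 at E60, and 1.43 at E80, 1.32 at E100 and 1.26 at E115. At E42 the level stood above the intervals of the other stages. The remaining lines among the 15 with most reads lay in ENSSSCG00000024934 with 372 reads, ENSSSCG00000000377 with 286 and ENSSSCG00000030096 with 236.

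**Figure D4:**
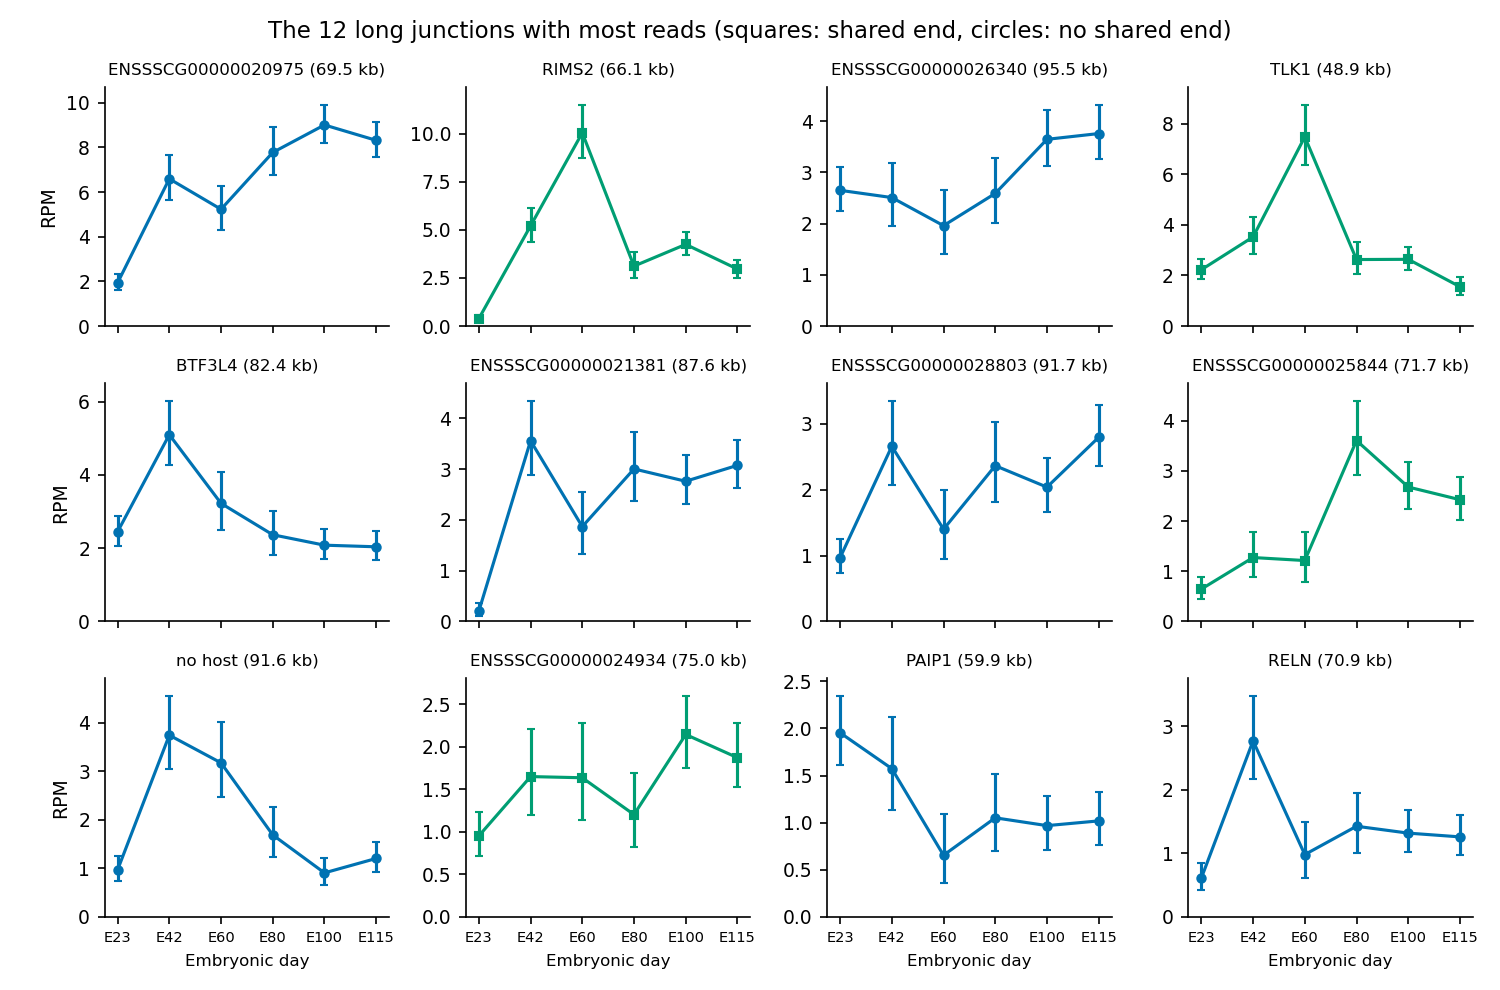
Level (RPM, vertical axes from 0) of the 12 long junctions with most reads by embryonic day (E23 forebrain, later cortex), 1 library per point with exact Poisson bars, green squares for lines with a shared end and blue circles for lines without. RIMS2 and TLK1 are highest at E60 (10.04 and 7.47 RPM), while ENSSSCG00000020975 and ENSSSCG00000026340 are highest at E100 or E115.

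For 5 of the 6 stages the long line with the highest ratio to the mean of the other stages was taken, among those with at least 50 reads. At E23 it was ENSSSCG00000030096 (chromosome 6, 97024076 to 97096660, 72.6 kb), with 184 reads at E23, 40 at E42 and 5 at E60, followed by 6 at E80, 1 at E100 and 0 at E115. A count of 0 at E115 allows up to 0.0556 RPM (3 reads). At E42 it was a line that overlaps ENSSSCG00000005391 and MSANTD3 (chromosome 1, 270602784 to 270655882, 53.1 kb), with 2 reads at E23, 48 at E42 and 16 at E60, then 3 at E80, 9 at E100 and 5 at E115. Its E42 level was 7.67 times the mean of the others.

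At E80 the line was ENSSSCG00000030463 (65 reads in all), and its E80 level was 2.28 times the mean of the others. Such counts are small, and no interval was set on such ratios because the lines were picked for them.

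At E100 the line was a second junction of RIMS2 (chromosome 4, 35844936 to 35890859, 45.9 kb), which shares its lower end with the abundant one. It had 0 reads at E23, 2 at E42 and 4 at E60, followed by 8 at E80, 30 at E100 and 19 at E115, and its E100 level was 3.38 times the mean of the others. The abundant RIMS2 line was highest at E60 and this one at E100, although both are measured from the same gene and the same libraries. At E115 the line was ENSSSCG00000025352 (chromosome 1, 14699637 to 14752959, 53.3 kb), with 0 reads at E23, 1 at E42 and 1 at E60, then 6 at E80, 17 at E100 and 29 at E115. Longest of all was a line over AOAH and ELMO1 (chromosome 18, 40637737 to 40737480), with 3 reads, all at E80.

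A linear trend with day was fitted over the 6 libraries to all 803 lines with at least 20 reads, of which 148 were long, with edgeR's quasi-likelihood test scaled by library totals. It called 1 long line, the fall of ENSSSCG00000030096, whose log2 change from E23 to E115 was -8.26 (SE 1.35, Benjamini-Hochberg adjusted p = 0.0063). Over all 803 lines 0.374% were called (0.249% lower with day), so 1 of 148 is near the background. At an unadjusted p under 0.05 there were 16 of 148 long lines and 88 of 803 over all lines, so this count is near the background too. The call was lost without E42, E100 or E115 (0 long lines called in each case). Without E23 the count was 13 of 129 long lines, 11 of them lower with day, against 178 of 651 over all lines (172 lower).

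The scaling set the sign of the typical long line in that fit. The median log2 change was -0.49 for long lines and -1.66 for shorter lines with library totals. With TMM factors, which take most lines as constant, it was 0.81 for long lines and -0.36 for shorter lines, and the median over all lines was moved up by 1.28. Long lines were thus higher than shorter lines by 1.17 in the median under either scaling. With TMM factors the test called 17 long lines (15 higher and 2 lower with day) and 24 shorter lines, while over all 803 lines 5.11% were called (3.36% higher and 1.74% lower).

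Among the 15 long lines that rose with day relative to the bulk of lines, under TMM factors, was a second line of RIMS2. The abundant ENSSSCG00000020975 line had a log2 change of 2.75 (SE 0.68, adjusted p = 0.0370 with edgeR). The RIMS2 line of 45.9 kb had 6.06 (SE 1.18, adjusted p = 0.0105). Others were ITFG1, DOCK3, ATRNL1, a line over ADGB and RAB32, and 3 lines without a host name. None of these 15 passed the threshold with library totals, where their edgeR adjusted p ranged from 0.238 to 0.569.

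Long lines came from many genes. Counting lines with 1 host name, 366 hosts had a long line, of which 280 had 1 and 86 had at least 2, and 249 hosts (68.0%) also had a shorter line. In 55 of the 86 hosts with several long lines (64.0%), at least 2 of them had an end in common. Hosts with many long lines included TBC1D32 with 8, and TLK1, KIFAP3 and CHD2 with 6 each.

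Within these hosts the reads were divided in different ways. TLK1, on the minus strand, had 6 long lines of 48.9 to 79.9 kb that all used the acceptor-side end at 86671532, and 1 of them held 83.3% of their 801 reads. RIMS2, also on the minus strand, had 5 long lines that all used the donor-side end at 35844936, with 87.1% of 948 reads in 1 line, and it had 0 shorter lines. In CHD2, which encodes a chromatin remodeller, 5 of 6 long lines had the acceptor-side end at 91982115.

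KIFAP3, the adaptor subunit of the kinesin-2 motor, had 0.442 RPM in sum at E23, 1.05 at E42 and 1.96 at E60, then 1.01 at E80, 0.556 at E100 and 0.778 at E115. It was highest at E60. In TBC1D32, whose protein acts at the cilium, 8 lines shared only 37 reads.

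The difference between long and shorter lines was also present inside single genes. In 41 hosts that had at least 20 reads in long lines and at least 20 in shorter lines, long lines held 36.1% of their circRNA reads at E23, 42.3% at E42 and 36.1% at E60, and 50.1% at E80, 55.9% at E100 and 60.4% at E115. Without ENSSSCG00000020975 these shares were 33.4%, 38%, 32.5%, 38.4%, 41.4% and 44.1% at the same stages. The shares at E115 and E60 stayed apart beyond counting error without that gene (41.1% to 47.1% at E115, 30.3% to 34.8% at E60). They also did without TLK1 as well (44.2% at E115 and 28.5% at E60).

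Gene by gene, long lines were less reduced at E115 than shorter lines in 31 of the 41 hosts. The median log2 change from E60 to E115 was -1.33 for their long lines and -2.50 for their shorter lines, with a median difference of 0.69. Some of these hosts had few reads, so their direction is uncertain. RBBP4 and PTPN4, for example, had 1 long read at E115 and 1 at E60. A log2 change of -1.33 is also the value of any host with equal reads at both days. LATS1, a kinase of the Hippo pathway, had 20 reads at E115 and 3 at E60 in its long line, against 4 at E115 and 22 at E60 in its shorter line. ATRNL1 had 19 at E115 and 3 at E60 in long lines, against 17 and 51 in shorter lines. In NCKAP1, a subunit of the WAVE complex that drives actin branching, the long line had 30 and 11 reads and the shorter lines 1 and 6.

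Other hosts went the opposite way or showed little difference. CNOT2, a subunit of the CCR4-NOT deadenylase, had 0 reads at E115 in both kinds of line, with 14 at E60 in the long line and 7 at E60 in the shorter line. RIMS1, a relative of RIMS2, had 6 reads at E115 and 7 at E60 in long lines and 106 and 123 in shorter lines, a difference of 0.0072 on the log2 scale.

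Host genes were sorted into 8 role lists to see where long lines fell. Synapse and active zone genes held 23 long lines from 12 hosts with 7.0% of long reads, against 1.67% of shorter reads. RIMS2 held 948 of the 1316 reads. The long lines of this list had 0.986 RPM in sum at E23, 7.57 at E42 and 13.5 at E60, followed by 5.03 at E80, 7.42 at E100 and 5.06 at E115. Their shorter lines had 0.459, 4.23, 11.9, 4.92, 5.65 and 5.33 RPM at these stages, so both kinds were lowest at E23 and highest at E60.

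Kinases and phosphatases held 32 long lines with 6.80% of long reads and 5.06% of shorter reads, led by TLK1. Axon guidance and adhesion genes, led by RELN, held 17 long lines with 2.40% of long reads and 1.47% of shorter reads. The other lists took less of the long reads than of the shorter ones. Chromatin genes held 19 long lines with 1.35% of long reads and 5.39% of shorter reads, and RNA binding and splicing genes 14 long lines with 2.91% and 4.17%. The list of centrosome, cilium and motor genes, which does not include KIFAP3 (192 long reads) or TBC1D32 (37), held 3 long lines with 0.0372% of long reads and 2.89% of shorter reads, so its long share is not that of all such genes. Ubiquitin pathway genes, led by MIB1, held 0.877% and 1.83%, and channels and receptors, led by KCNT2, held 0.128% and 0.899%.

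The levels of long and shorter chromatin lines took different courses. Long lines of chromatin genes had 1.14 RPM at E23, 1.24 at E42 and 0.841 at E60, then 0.864 at E80, 1.03 at E100 and 1.17 at E115. Shorter lines of chromatin genes had 10.5 RPM at E23, 36.4 at E42 and 46.0 at E60, and 11.2 at E80, 7.36 at E100 and 5.45 at E115. In the lists of cell type markers, 4 long lines of the cortex table, with 204 reads, had hosts from the list of neuronal genes, as did 9 shorter lines with 274 reads. Markers of radial glia, oligodendrocytes, astrocytes, vessels, blood, microglia, meninges and choroid plexus had 0 long lines in both tables, but shorter lines were nearly as rare there, with 1 for radial glia and 1 for vessels in the cortex table and 0 for the other lists.

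The relation of each line with the FPKM of its host gene, the authors' estimate of gene expression, was described by Spearman's rho over the 6 libraries. For 62 long lines with at least 50 reads and 1 host name the median rho was 0.63, with 10 below 0. For 206 shorter lines it was 0.62, with 27 below 0. The 6 points of each line share libraries and depth, and 62 lines came from 56 hosts. The medians of long and shorter lines were nearly equal.

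They differed in how far they moved relative to the host. From E60 to E115 the median log2 change in circRNA level was -0.26 for long lines and -2.25 for shorter lines, while that of host FPKM was -0.23 and -0.55. CircRNA level per host FPKM changed by a median of -0.24 in long lines and -1.76 in shorter lines. It was lower at E115 in 37 of 62 long lines and in 184 of 206 shorter lines. Host FPKM of the same cortex libraries differs between the tables for some genes, as given below for TLK1 and MSH3. These values therefore hold for the FPKM of the cortex table only.

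TLK1 was among the 3 lines with the highest rho, at 1.0. Its host had 36.8 FPKM at E23, 67.8 at E42 and 125 at E60, followed by 41.6 at E80, 46.2 at E100 and 35 at E115, in the order of the circRNA levels above. The regions table gives this host 26.9 FPKM at E60 and 24.6 at E115 in the same cortex libraries, so the fall is far smaller there. ZNF283, a zinc finger gene (chromosome 6, 46472705 to 46568764, 66 reads), and ENSSSCG00000021303 (chromosome 14, 93524865 to 93616690, 54 reads) had the same rho. ENSSSCG00000030096 fell together with its host, which had 32.4 FPKM at E23, 22.7 at E42 and 1.24 at E60, then 1.53 at E80, 0.71 at E100 and 0.53 at E115.

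MSH3, ATP2B2 and ELMOD2 had the lowest values. ATP2B2 encodes a plasma membrane calcium pump of neurons, and its line (chromosome 13, 73561709 to 73653108, 91.4 kb) had 0.918 RPM at E23, 0.599 at E42 and 0.514 at E60, and 0.488 at E80, 0.577 at E100 and 0.537 at E115. Its host gene had 3.16 FPKM at E23, 10.4 at E42 and 10.4 at E60, followed by 26.5 at E80, 65.2 at E100 and 69.4 at E115, so the gene was far higher late while the line was not (rho -0.54). MSH3, a mismatch repair gene, had a rho of -0.26 (chromosome 2, 91264177 to 91335022, 70.8 kb). Its line had 51 reads at E115 and 4 at E60, while the host had 11.9 FPKM at E115 and 15.2 at E60 in the cortex table. The regions table gives MSH3 14.0 FPKM at E115 and 11.7 at E60 for the same cortex libraries, the opposite order, and a rho of 0.38 over its 10 libraries. ELMOD2, which encodes a GTPase-activating protein of the Arf family, had a rho of -0.54.

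In the regions table the long share differed between the days in cortex, and in the other regions by no more than counting error. In cortex it was 25.1% at E115 (exact interval 24.2% to 26.1%) and 10.6% at E60 (10.1% to 11.1%). In hippocampus it was 18.1% at E115 and 16.3% at E60, and in basal ganglia 21.4% at E115 and 19.5% at E60. In brain stem it was 21.1% at E115 and 20.7% at E60, and in cerebellum 17.2% at E115 and 18.1% at E60. The same cortex libraries have other values here than above, because the regions table lists a different set of lines. It holds 2017 long reads at E115 and 1556 at E60, against 4003 and 2177 in the cortex table. None of its lines used here lacked a host name (0 long and 0 shorter). The cortex at E60 had the lowest share of the 10 libraries and the cortex at E115 the highest. With the lines whose reads do not add up the E60 cortex was still lowest, at 11.8%, but the highest share was that of the brain stem at E60, at 28.2%, above 26.7% in the E115 cortex and 21.8% in the E115 brain stem.

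The log2 ratio of the share, E115 over E60, was 1.24 in cortex (interval 1.16 to 1.33), 0.15 in hippocampus (-0.06 to 0.35), 0.13 in basal ganglia (-0.07 to 0.33), 0.03 in brain stem (-0.22 to 0.29) and -0.07 in cerebellum (-0.24 to 0.10). Counting error covered the change in the other 4 regions and not in cortex. The mean over the 5 regions was 0.30 (exact sign-flip permutation p = 0.188, two-sided), and 5 regions can give no p below 0.0625. Without the cortex the mean was 0.06 (exact sign-flip permutation p = 0.375). The brain stem value rests on 107 long reads at E60, and with the lines whose reads do not add up it was -0.37, and the ENSSSCG00000020975 line alone has 113 reads there at E60.

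The level of long junctions went in different directions. In cortex it was 37.4 RPM at E115 and 72.7 at E60 (74.1 and 102 with the lines of the cortex table). In basal ganglia it was 26.8 at E115 and 35.6 at E60. In hippocampus it was 27.3 RPM at E115 and 12 at E60, in brain stem 28.1 and 8.09, and in cerebellum 66.3 and 27.4. Outside the cortex shorter junctions moved with the long ones: the ratio of E115 to E60 was 2.27 for long and 2.0 for shorter junctions in hippocampus, 0.752 and 0.671 in basal ganglia, 3.47 and 3.37 in brain stem, and 2.42 and 2.57 in cerebellum. In cortex it was 0.514 for long and 0.182 for shorter junctions, against 0.729 and 0.20 with the lines of the cortex table. Over the 5 regions the mean log2 ratio of long levels was 0.58 (exact sign-flip permutation p = 0.375).

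The split by shared ends was again seen in cortex. Long lines without a shared end had 19 RPM at E115 and 15.6 at E60, a ratio of 1.22 (1.07 to 1.38), and those with one had 18.4 at E115 and 57.1 at E60, a ratio of 0.322 (0.296 to 0.350). The cortex libraries are the same as in the cortex table, so this is no second measurement. In the other 4 regions both kinds moved the same way, with ratios of 2.19 without and 2.31 with a shared end in hippocampus, 0.841 and 0.698 in basal ganglia, 4.01 and 3.18 in brain stem, and 1.96 and 2.63 in cerebellum.

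Of the 20 long lines with at least 50 reads in the regions table, 6 had their highest level in the E115 cerebellum, 5 in the E115 cortex, 3 in the E60 cortex and 2 in the E60 basal ganglia. The E115 hippocampus, the E115 basal ganglia, the E115 brain stem and the E60 cerebellum had 1 each. Among 106 shorter lines, 71 (67.0%) were highest in the E60 cortex, 24 in the E115 cerebellum and 1 in the E115 cortex. In the brain stem, where the E60 library is thin, all 20 long lines had more RPM at E115 than at E60. So had 94 of 106 shorter lines there (88.7%), so the long count is near that of shorter lines. In the cortex 10 of 20 long lines (50%) and 5 of 106 shorter lines (4.72%) had more RPM at E115.

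RIMS2 had the most reads, with 784 in its 66.1 kb line. Its level was 2.96 RPM at E115 and 10.04 at E60 in cortex, 1.40 and 1.54 in hippocampus, 3.0 and 4.88 in basal ganglia, 1.62 and 1.21 in brain stem, and 10.5 and 2.92 in cerebellum. The cerebellum at E115 thus reached the level of the cortex at E60. In cerebellum the E115 level was 3.60 times the E60 level (exact interval 2.43 to 5.51), the opposite of the cortex ratio of 0.295.

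RELN was also highest in the E115 cerebellum. The RELN line had 4.90 RPM at E115 and 2.53 at E60 in cerebellum, and at most 1.26 in any other library. For RELN the mean level in cerebellum was 5.11 times that of the other regions. Its host gene had 118 FPKM at E115 and 84.6 at E60 in cerebellum, against 12.2 to 37.7 in the other 8 libraries.

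TLK1 led in the cortex, with a mean level of 6.99 times that of the other regions, which rests on the E60 library. At E115 alone the TLK1 ratio was 2.22, and at E60 alone 12.7. It had 1.56 RPM at E115 and 7.47 at E60 in cortex, 0.349 and 0.225 in hippocampus, 0.414 and 0.862 in basal ganglia, 0.770 and 0.303 in brain stem, and 1.27 and 0.972 in cerebellum. The host gene did not follow, with 24.6 FPKM at E115 and 26.9 at E60 in cortex and 98.9 at E60 in hippocampus (rho -0.25 over the 10 libraries). The cortex table gives 125 FPKM at E60 for the same gene and library. FPKM is therefore compared within a table only, and a change of the host between days depends on the table used.

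**Figure D5:**
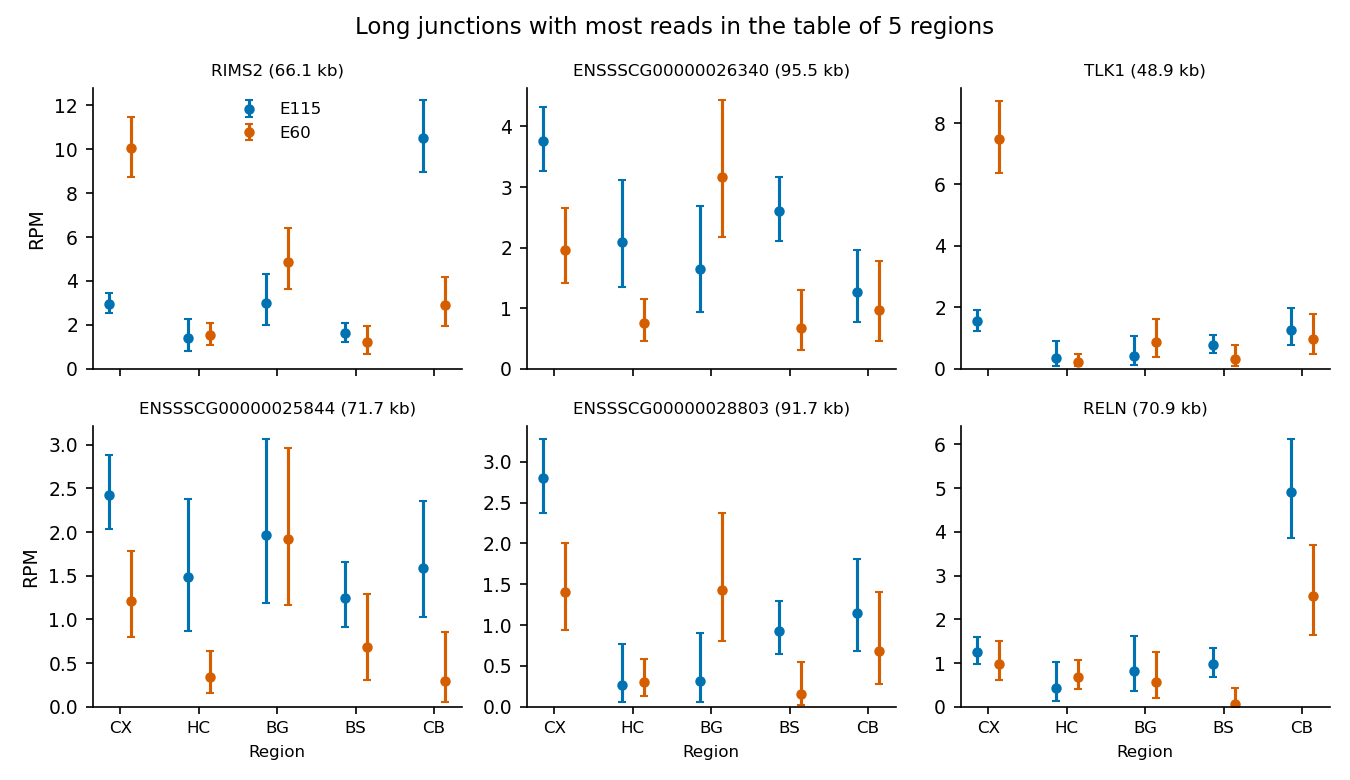
Level (RPM, vertical axes from 0) of the 6 long junctions with most reads among lines that add up, in cortex (CX), hippocampus (HC), basal ganglia (BG), brain stem (BS) and cerebellum (CB) at E115 (blue) and E60 (orange), 1 library per point with exact Poisson bars. RIMS2 and RELN are high in the E115 cerebellum (10.5 and 4.90 RPM), and TLK1 is high in the E60 cortex (7.47 RPM).

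Lines without a symbol were read in all regions. ENSSSCG00000026340 had 3.76 RPM at E115 and 1.96 at E60 in cortex, 2.10 and 0.749 in hippocampus, 1.65 and 3.16 in basal ganglia, 2.60 and 0.681 in brain stem, and 1.27 and 0.972 in cerebellum. It was thus higher at E115 in 4 of 5 regions, and lower in basal ganglia, with a ratio of 0.524 (0.269 to 0.979). ENSSSCG00000015675 (chromosome 15, 12078417 to 12167330, 88.9 kb) had between 0.573 and 1.06 RPM in the 5 libraries of E115 and between 0.140 and 0.412 in the 5 of E60. The values of its days thus lay apart, but the counts were small, and intervals overlapped in some regions. In hippocampus, with 8 reads at E115 and 11 at E60, the ratio was 1.70 (0.592 to 4.63). The test over regions did not call it (edgeR adjusted p = 0.999).

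The remaining regions had less distinct lines. In hippocampus PPA2 led, with 2.01 RPM at E115 and 0.412 at E60 (ratio 4.88, 2.28 to 11.1), at 2.09 times the mean of the other regions (2.92 at E115 alone and 0.875 at E60 alone). In basal ganglia ENSSSCG00000027460 (chromosome 5, 60475998 to 60517522) had 6 reads at E115 and 7 at E60, at 4.01 times. At E115 its level there was 0.620 RPM, against 0.648 in cortex (35 reads). In brain stem MSH3 had 34 reads at E115 and 2 at E60, at 1.21 times the mean of the others (1.59 at E115 alone and 0.495 at E60 alone). Its level was 0.903 RPM at E115 and 0.151 at E60 in brain stem. In cortex it was higher on both days, at 0.945 and 0.187 RPM.

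No long line passed the edgeR tests over the 5 regions. Of 387 lines with at least 20 reads, 65 were long, and 0 of 65 were called for E115 against E60 or for region, with 0% called over all lines. At an unadjusted p under 0.05 the count of long lines was 0 in both tests, against 4 of 322 shorter lines for day and 19 for region. For the day effect DESeq2 and limma-voom also called 0 long lines. TMM factors called 0 long lines, against 0.517% of all lines (0.258% higher and 0.258% lower at E115). With these factors 7 of 65 long lines and 14 of 322 shorter lines had an unadjusted edgeR p under 0.05 for day. The scatter left after the day and region terms was large, with a common dispersion of 0.997 against 0.626 around the cortex trend.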

How the data were processed

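Junction reads of 14 libraries were used as whole counts, as the authors deposited them in 2 tables, per the file headers. RPM values, computed by the authors, are listed at 0 for a line with 1 read, so levels were recomputed from reads and library totals (reads divided by RPM). FPKM of host genes, genomic length and distinct junction reads (other values) were also deposited, per the file headers. The submitters' processing notes name Trim Galore, TopHat2, Cufflinks, Cuffdiff and the build Sscrofa10.2 (susScr3). Per the labels' protocols, Ribo-Zero and ScriptSeq v2 kits were used. How circRNAs were called and filtered is not given in the sources used here. Value columns that matched no sample numbered 0.

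Positions are on Sscrofa10.2 and start at 1, and no annotation of that build was used. Host names are the tables' own, set by overlap. Of 160 Ensembl identifiers among 465 hosts of long lines, 47 had a symbol. Intervals (95%) are exact for shares (Clopper-Pearson), levels (Poisson) and ratios of levels (conditional) and log-normal for ratios of shares. They cover counting error only, as PCR copies cannot be told from molecules. Log2 ratios of reads per line used a pseudocount of 0.5. A line counted as detected from 2 reads.

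The quasi-likelihood test of edgeR 4.0.16 in R 4.3.3 took lines with at least 20 reads, the recovered totals as library sizes and a threshold of 0.05 after Benjamini-Hochberg adjustment. Day was a linear term in cortex, and the region fit had day and region terms. Its p-values measure scatter around a line, or what the day and region terms leave, and not differences between animals. TMM factors, DESeq2 1.42.0 and limma 3.58.1 were alternatives. The code was tested on simulated data. Members, lists and tests were chosen with earlier results of these data known, and the use of lines that add up and the split by shared ends after seeing the data. Lines were named by rule: the 15 with most reads in cortex and the 10 in the regions, the highest ratio at each stage or in each region, the extremes of host relation, length and number per host, and each line called. Lines called with TMM factors and examples within hosts were chosen after their values were seen, as were the ratios of a region to the others at each day alone. Some lines that these rules name are not reported here.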

Additional observations from a re-analysis of the deposited data

Results flagged for a closer look

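The change in the level of long junctions between E115 and E60 went in opposite directions in different regions, beyond counting error in each. The log2 ratio, E115 over E60, was -0.96 in cortex and -0.41 in basal ganglia, against 1.18 in hippocampus, 1.79 in brain stem and 1.27 in cerebellum. Each rests on 1 library per region and day, so the difference between regions was not tested. The level of shorter junctions moved in the same direction in each region (-2.46, -0.58, 1.0, 1.75 and 1.36 on the log2 scale, in the same order).

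The ENSSSCG00000020975 line was left out of the regions table because its library reads do not add up to its stated total of 924. The libraries list 893 reads, which is more than any long line that was used there.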

How the results depend on the processing

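The rank relation of the long share with day kept its direction and stayed above the threshold in all 13 alternatives, with rho from 0.60 to 0.90 when 1 stage was left out. The mean change over 5 regions kept its direction in all 11. Its sign-flip p could not fall below 0.0625 in any of them, so staying above the threshold carries no information there. The ratio of the long share, E115 over E60, was 2.31 with a limit of 30 kb, 3.15 with 50 kb and 2.90 on lines with 1 host name. The level ratio of long lines without a shared end was 1.33 on lines with 1 host name, and that of lines with a shared end was 0.412 with a limit of 30 kb and 0.522 with 50 kb. The trend test called 17 of 148 long lines with TMM factors (41 of 803 over all lines) and 20 with DESeq2 (49 of 803 over all lines). It called from 0 to 13 when 1 stage was left out, and the 13, without E23, stood against 178 of 651 over all lines. As shares of circRNA reads in place of RPM, 6.76% of long lines were highest at E42 or E60 and the median rho with host FPKM was 0.37 (0.49 for shorter lines). The region tests called 0 long lines in every alternative. The region tests pair the days by region, and the fit without region terms also called 0 long lines. The labels carry no replicate numbers that could pair libraries. With 1 library per group, differences between animals cannot be seen, and lines under 20 reads were not tested.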
